A study of Mus musculus with 4 samples.

Results

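The semaphorins, plexins and neuropilins were followed in cultures of SL4, a mouse colon carcinoma line, with Kupffer cells, which are macrophages that live in the liver sinusoids. The members were all genes whose symbol in the platform annotation begins with Sema and a digit, is Plxn with a letter from a to d and a digit, or is Nrp1 or Nrp2, taken from probe sets with 1 symbol. They came to 31 of the 18193 named genes, namely 20 semaphorins, 9 plexins and 2 neuropilins, covered by 78 probe sets. Plxna4os1, a noncoding RNA from the strand opposite Plxna4, was left out because it is no plexin.

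Semaphorins are signalling proteins of axon guidance, blood vessel growth, cell adhesion and immune cells. Class 3 semaphorins are secreted, classes 4, 5 and 6 span the membrane, and class 7 is held by a lipid anchor. Plexins are their signalling receptors, whose inner part acts on small GTPases and thereby on adhesion and the cytoskeleton. Most class 3 semaphorins bind through a neuropilin, a co-receptor without an enzyme domain of its own. Neuropilins also bind members of the vascular endothelial growth factor (VEGF) family, Nrp1 chiefly with Vegfa and its receptors and Nrp2 with Vegfc as well. Macrophages, endothelial cells and many tumour cells use these proteins. Sema3a is the best known repulsive cue among them, and Sema4d a known signal of leukocytes.

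The 4 groups crossed the genotype of the Kupffer cells, wild type or Clec4n-/-, with the way they were kept beside SL4 cells, apart (separate culture) or mixed (co-culture). Clec4n encodes Dectin-2, a receptor for fungal and other glycans on myeloid cells. The Kupffer cells were sorted by CD45, CD11b and F4/80 from female C57BL/6 mice of 12 weeks, and SL4 is labelled with the same strain. The genotype label refers only to the Kupffer cells. Cultures were held for 8 hours with equal numbers of both cells. Each array is labelled as holding both cell types, the separate cultures included, so no change can be placed in 1 of them. Fewer cells of a type and less RNA per cell cannot be told apart. Each group had 1 array, the number of mice is not given, and SL4 is a single line.

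Signals are MAS5 intensities on a linear scale. A floor of 76.1, which is the median signal of the whole platform in these arrays, marks the level under which a signal was not used for ratios. Each array had between 10117 and 10187 genes above it. Both probe sets of Clec4n lay under the floor in all 4 arrays, at 8.29 and 8.19 in the knockout arrays and 14.2 and 17.6 in the wild-type arrays for the brighter one, so the genotype labels could not be checked firmly. Of the Kupffer cell markers 2 of 9 were above the floor in any array, Cd5l in all 4 and Slc40a1 in 3. Cd5l read 156 in wild-type and 125 in knockout separate culture, and 156 and 195 in co-culture. The others, Clec4f, Timd4, Vsig4 and Adgre1 among them, lay under the floor in all. Of 16 macrophage and leukocyte markers 8 lay above the floor, among them Cd53 and Laptm5. Of 13 epithelial and colon markers only Spint1 was above it in all 4 arrays, with Cdh1 and Krt20 under it in all, against 8 of 11 mesenchymal markers.

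Of the 31 members 21 lay above the floor in at least 1 array and 17 in all 4. The other 10 were Sema3f, Sema3g, Sema4f, Sema4g, Sema5b, Sema6b, Sema6c, Plxna4, Plxnb3 and Plxnc1, whose signals lay between 2.43 and 75.4. Plxnc1, the receptor of Sema7a, and Sema4g read highest of them, at 75.4 and 75.3 in the knockout separate array. The other probe sets of Plxnc1 read at most 23.1 in any array. No ratio is given for these genes, and a low signal does not show that a gene was silent.

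The question of the culture comparison was how contact with the tumour cells changes these genes. In co-culture, Sema3c, Sema4b and Nrp2 rose and Sema3a, Sema3d, Sema3e, Sema5a and Sema6d fell. Those are the 8 members of 21 called by limma with Benjamini-Hochberg adjustment at 0.05 in a model with terms for culture and genotype, 3 higher and 5 lower. Over all 10637 genes in that fit 6.37% were called, 2.55% higher and 3.83% lower. The fit uses the genotypes as blocks, so its error comes from how far wild type and knockout differ in their response, with 1 residual degree of freedom per gene joined to 11.1 prior degrees of freedom from all genes. The median culture effect of the 21 members was -0.15 on the log2 scale, against -0.012 over all genes. Without the dependence of the prior variance on signal, which was part of the fit, 2 members remained called, Sema3d and Sema5a, against 0.423% of all genes. Without the filter on low signals limma called 0 members and 0 of all 18193 genes, with 9 of 31 members and 8.41% of all genes at an unadjusted p under 0.05.

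In the 17 members above the floor in all 4 arrays, where no member enters through 1 condition alone, a refit called 7, namely Sema4b and Nrp2 as higher and Sema3a, Sema3e, Sema5a, Sema6d and Nrp1 as lower, with 9.91% of all such genes called. By size alone, Sema3c was at least 2-fold higher in wild type and Sema3d and Sema5a at least 2-fold lower, where 0.701% of all genes were higher and 0.538% lower. In knockout, Sema3d and Sema5a were at least 2-fold lower and no member was 2-fold higher, with 0.574% of all genes lower and 0.67% higher. In either direction these were 3 members in wild type and 2 in knockout, where 1.24% of all genes passed in each genotype. These comparisons have no replicate check. Both co-culture arrays lay outside both separate arrays for 17 of the 21 members, 6 higher and 11 lower, against 46.5% of all genes, 20.2% higher and 26.3% lower. Sema3b and Plxna2 are among the lower ones and had to be, since they were above the floor in separate culture only. Of the 17 members above the floor in all 4 arrays, 13 did not overlap, against 46.4% of such genes.

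**Figure D1:**
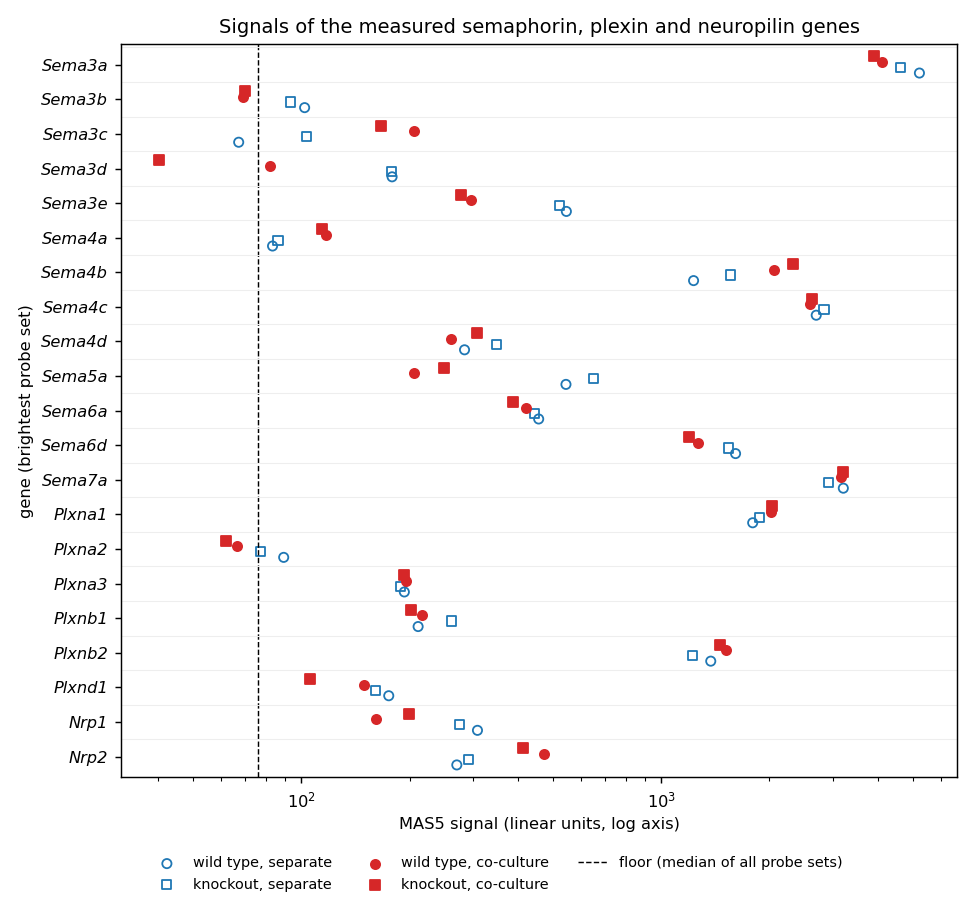
MAS5 signals (log axis) of the 21 members above the floor in at least 1 array, 1 point per array; open blue marks are separate culture, filled red marks co-culture, circles wild type and squares knockout, and the dashed line is the floor of 76.1. The red marks of Sema5a, Sema3d and Sema3e lie left of both blue marks, and those of Sema3c, Sema4b and Nrp2 right of them.

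The secreted class 3 held the most called members, 1 higher and 3 lower of the 5 above the floor. Of all genes 2.55% were called as higher and 3.83% as lower. Sema3c, a cue that can attract growing axons and acts through both neuropilins, read 67.0 in wild-type and 104 in knockout separate culture, and 206 in wild-type and 166 in knockout co-culture. Both co-culture arrays lay above both separate arrays. Sema3c was at least 2.70-fold higher in wild type and in knockout 1.61-fold, with a fitted log2 change of 1.06 ± 0.21 (SE) and an adjusted p of 0.0114. Its wild-type separate signal was raised to the floor in the fit. The fitted change is thus a bound, and its SE and p rest on that raised signal. Its second probe set rose too, from 77.3 and 79.9 in separate culture to 158 in wild-type and 198 in knockout co-culture, 2.04-fold and 2.48-fold. The probe sets thus put the larger change in different genotypes.

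Sema3d, a secreted cue of the developing vessels and nerves, read 179 and 178 in separate culture and 82.0 in wild-type and 40.3 in knockout co-culture. It fell 2.18-fold in wild type and at least 2.34-fold in knockout, with a fitted log2 change of -1.18 ± 0.18 (SE) and an adjusted p of 0.00241. Sema3d entered the fit with its knockout co-culture signal raised to the floor. Its fitted change is thus a bound, and its SE and p rest on that raised signal. Its second probe set was at 115 and 137 in separate culture and under the floor in both co-culture arrays. With the floor doubled to 152 its fitted change was -0.23, since both co-culture signals then lay at the floor, and that of Sema3c was 0.28, since both of its separate signals did. Neither was then called.

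Sema3e signals through Plxnd1 without needing a neuropilin. It read 545 in wild-type and 523 in knockout separate culture, and 296 and 278 in co-culture, so the genotypes were close and the culture conditions apart. It fell 1.85-fold and 1.88-fold, with a fitted log2 change of -0.90 ± 0.16 (SE) and an adjusted p of 0.00523. Its other 3 probe sets were lower as well, between 1.21-fold and 1.53-fold in either genotype, and with the median of its probe sets in place of the brightest the change was -0.45 and was not called.

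Sema3a, the classical repulsive semaphorin, had signals of 5219 in wild-type and 4614 in knockout separate culture, and 4105 and 3892 in co-culture. The fall was small, 1.27-fold and 1.19-fold, with a fitted log2 change of -0.30 ± 0.069 (SE) and an adjusted p of 0.0238. Both of its dimmer probe sets lay lower by more, 1.38-fold and 1.45-fold in wild type and 1.53-fold and 1.37-fold in knockout. Sema3b, a secreted semaphorin studied as a tumour suppressor, read 102 and 93.6 in separate culture and 68.8 and 70.0 in co-culture, under the floor. Its fitted change of -0.36 ± 0.18 (SE), from co-culture signals raised to the floor, was not called (adjusted p = 0.278).

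Of these genes Sema3a, Sema3c, Sema3d and Sema3e lie on chromosome 5, all on the plus strand, and only Sema3c rose. Their promoters are shown because the gene that rose and the 3 that fell start in sequence of different make-up. They were chosen with the directions known. The windows run from 250 bases before to 50 after the start of transcription, are taken from RefSeq on GRCm38.p6, and carry each CpG pair in capitals.
Sema3c, chr5:17574566-17574865, plus strand: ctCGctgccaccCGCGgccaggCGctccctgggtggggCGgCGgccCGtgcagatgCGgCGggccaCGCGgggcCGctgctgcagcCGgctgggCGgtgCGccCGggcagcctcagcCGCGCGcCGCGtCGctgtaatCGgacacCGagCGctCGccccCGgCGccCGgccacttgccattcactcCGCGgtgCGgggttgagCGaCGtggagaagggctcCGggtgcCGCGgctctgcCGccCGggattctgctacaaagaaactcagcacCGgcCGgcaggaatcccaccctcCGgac
Sema3d, chr5:12382916-12383215, plus strand: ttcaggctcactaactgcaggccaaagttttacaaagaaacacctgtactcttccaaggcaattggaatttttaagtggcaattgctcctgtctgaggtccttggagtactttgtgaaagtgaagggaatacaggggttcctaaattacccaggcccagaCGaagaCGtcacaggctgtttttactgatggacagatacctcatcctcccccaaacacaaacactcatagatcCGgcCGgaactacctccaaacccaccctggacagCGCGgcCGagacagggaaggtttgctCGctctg
Sema3a, chr5:13396534-13396833, plus strand: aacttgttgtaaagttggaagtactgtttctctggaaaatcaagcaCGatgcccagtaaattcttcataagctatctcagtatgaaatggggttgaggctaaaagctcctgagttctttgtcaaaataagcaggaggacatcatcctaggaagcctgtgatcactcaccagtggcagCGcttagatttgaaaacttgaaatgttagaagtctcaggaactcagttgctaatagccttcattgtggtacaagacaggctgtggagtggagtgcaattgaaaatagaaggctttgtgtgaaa
Sema3e, chr5:14025026-14025325, plus strand: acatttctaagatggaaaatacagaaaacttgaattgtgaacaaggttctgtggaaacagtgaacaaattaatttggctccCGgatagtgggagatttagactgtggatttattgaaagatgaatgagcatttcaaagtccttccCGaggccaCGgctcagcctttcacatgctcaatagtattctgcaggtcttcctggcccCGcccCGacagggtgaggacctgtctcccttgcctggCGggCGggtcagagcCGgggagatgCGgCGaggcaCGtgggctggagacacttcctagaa
The Sema3c window holds 42 CpG pairs and 75.7% G and C, against 8 pairs and 49.7% in Sema3d, 2 pairs and 41.3% in Sema3a, and 11 pairs and 50.7% in Sema3e. The median over 32851 promoters was 7 pairs and 52.7%, and over the 37 promoters of members 15 pairs and 63.7%. The contrast of Sema3c with the 3 genes that fell did not extend to Sema5a, which also fell and has 23 pairs and 71.3%. Of the other called members, Nrp2, which rose, has 37 pairs, and the windows of Sema4b, which rose, hold 26 and 28. Those of Sema6d, which fell, hold 14 and 6. A link between make-up and direction was not tested.

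The 4 windows were searched on both strands for the letters TGANTCA of AP-1, the NF-kappaB motif and the letters GGAATG of TEAD, and held none of them. Over all promoters 7.81% held the AP-1 letters, 5.56% the NF-kappaB motif and 14.7% the TEAD letters. Among the 37 promoters of the 26 members that the table listed, 3, 1 and 3 held them. The AP-1 letters stood in windows of Sema4c, Sema4d and Sema6b, the NF-kappaB motif in Sema6c, and the TEAD letters in Plxnb1, Plxnd1 and Sema4a. No called member that the table listed had any of them, and no member had more than 1, so their matches did not overlap.

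Among the membrane semaphorins, Sema4b, a class 4 member, rose and Sema5a and Sema6d fell. Sema5a, which carries thrombospondin repeats and binds Plxna1 and Plxna3 in the nervous system, read 544 in wild-type and 649 in knockout separate culture, and 206 and 249 in co-culture. Every co-culture signal was under every separate one. It fell 2.64-fold in wild type and in knockout 2.61-fold, with a fitted log2 change of -1.39 ± 0.17 (SE) and an adjusted p of 0.000287. Its dimmer probe sets were 1.93-fold and 1.60-fold lower in wild type and 2.09-fold and 2.69-fold lower in knockout.

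Sema4b read 1231 in wild-type and 1555 in knockout separate culture, and 2058 and 2327 in co-culture. It was higher by 0.74 in wild type and 0.58 in knockout on the log2 scale, with a fitted log2 change of 0.66 ± 0.072 (SE) and an adjusted p of 0.000159. Knockout read above wild type in both conditions, by 0.34 in separate culture and 0.18 in co-culture on the log2 scale. Its second probe set was higher too, 1.65-fold and 1.36-fold.

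Sema6d, a ligand of Plxna1, read 1610 in wild-type and 1537 in knockout separate culture, and 1262 and 1198 in co-culture. It fell 1.28-fold in each genotype, with a fitted log2 change of -0.36 ± 0.074 (SE) and an adjusted p of 0.0135. Its second probe set was 1.21-fold and 1.36-fold lower, while its dimmest one above the floor read 56.0 against 91.9 in wild type, the opposite direction, and was under the floor in knockout. With the median of all its probe sets the change was -0.11 and was not called.

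The remaining membrane semaphorins were not called. Sema4a, a costimulatory ligand of T cells, read 83.2 and 86.2 in separate culture and 117 and 114 in co-culture, with an adjusted p of 0.182, and its second probe set went the other way in wild type, at 119 against 94.2. Sema4c read 2697 and 2835 in separate culture and 2598 and 2630 in co-culture. Sema4d, which signals through Plxnb1, read 284 and 349 in separate culture and 260.5 and 308 in co-culture, so its conditions overlapped. Sema7a, which also binds integrins, read 3207 and 2913 in separate culture and 3167 and 3211 in co-culture, and its second probe set was 1.39-fold higher in wild type and 1.20-fold higher in knockout.

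Sema6a, a ligand of Plxna2 and Plxna4, depended on the probe set. The brightest read 457 and 446 in separate culture and 420 and 388 in co-culture (adjusted p = 0.629). The dimmest of its 3 probe sets read 205 and 208 in separate culture and 92.1 and 124 in co-culture, and was called in the fit over all probe sets, at -0.95 on the log2 scale with an adjusted p of 0.013. Whether the probe sets cover different transcripts was not tested.

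**Figure D2:**
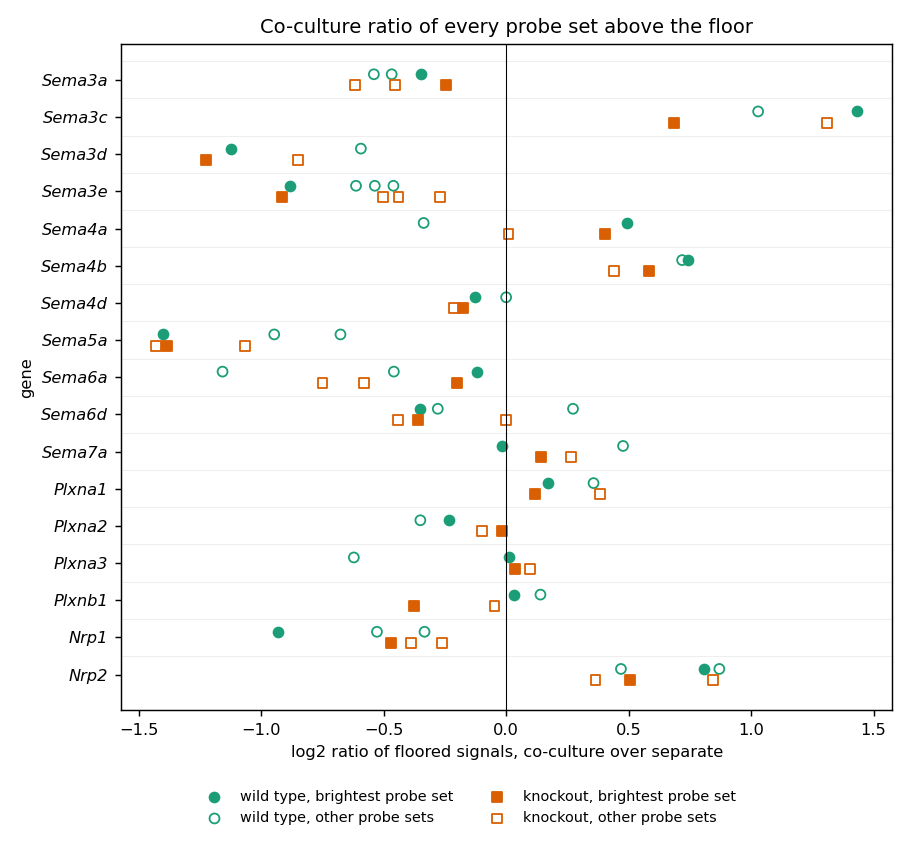
Log2 ratio of floored signals, co-culture over separate culture, for every probe set above the floor in at least 1 array of the 17 members that have more than 1 such probe set; circles are wild type, squares knockout, and filled marks the brightest probe set. All marks of Sema5a, Sema3e and Nrp1 lie left of 0 and all of Sema3c, Sema4b and Nrp2 right of it, while Sema4a, Plxna3, Sema6d and Sema7a have marks on both sides in wild type.

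Of the 25 probe sets other than the brightest, 20 went in the direction of the brightest in wild type and 24 in knockout. Probe sets of a gene share the array and the RNA, so this is a repeat of the measurement and not of the experiment.

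Limma called 0 of the 6 plexins above the floor, where 6.37% of all genes were called. Of these plexins 1, Plxnb2, had an unadjusted p under 0.05, as did 20.4% of all genes. Plxna1, a receptor for class 3 semaphorins with neuropilins and for Sema6d, read 1796 and 1879 in separate culture and 2019 and 2036 in co-culture, with an adjusted p of 0.260. Plxnb2, a receptor for class 4 semaphorins, read 1374 and 1225 in separate culture and 1512 and 1459 in co-culture, with an adjusted p of 0.165. In both, each co-culture array read higher than each separate array, which was true of 20.2% of all genes.

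Plxnd1, the receptor of Sema3e, read 175 and 161 in separate culture and 150 and 106 in co-culture. It was 1.17-fold lower in wild type and 1.52-fold lower in knockout, and its fitted change of -0.41 ± 0.20 (SE) had an adjusted p of 0.259. Plxna2 read 89.4 and 77.1 in separate culture and lay under the floor in co-culture. Plxna3 read between 189 and 195 in all 4 arrays, although its second probe set was at 141 in wild-type co-culture against 217 in wild-type separate culture. Plxnb1 read 211 and 262 in separate culture and 216 and 202 in co-culture, so its conditions overlapped.

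The neuropilins lay on opposite sides of 0. Nrp2 read 271 in wild-type and 292 in knockout separate culture, and 474 and 414 in co-culture. It rose 1.75-fold and 1.42-fold, with a fitted log2 change of 0.66 ± 0.17 (SE) and an adjusted p of 0.0432, near the threshold. Under 5 of 8 other settings it was not called, at a fitted change between 0.64 and 0.67. Its second probe set was higher by 1.83-fold and 1.80-fold. Nrp1 read 309 and 275 in separate culture, and 162 in wild-type and 199 in knockout co-culture, 1.91-fold and 1.38-fold lower. Its fitted change of -0.70 ± 0.20 (SE) missed the threshold with an adjusted p of 0.0571. All 3 of its probe sets above the floor were lower in co-culture in both genotypes.

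The VEGF ligands and receptors that neuropilins bind were read from a list. Of its 8 genes 6 lay above the floor, and 2 were called as higher and 1 as lower. Of all genes 2.55% were called as higher and 3.83% as lower. Vegfa, the main growth factor of blood vessels, read 806 and 798 in separate culture and 1277 and 1372 in co-culture, 1.58-fold and 1.72-fold higher. Vegfc, the growth factor of lymphatic vessels, read 654 and 779 in separate culture and 948 and 1022 in co-culture, with an adjusted p of 0.0176. Flt1, a VEGF receptor that also acts as a decoy, read 578 and 488 in separate culture and 241 and 269 in co-culture, and fell 2.40-fold in wild type and in knockout 1.81-fold. Kdr and Flt4, the other VEGF receptors, lay under the floor in all 4 arrays.

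**Figure D3:**
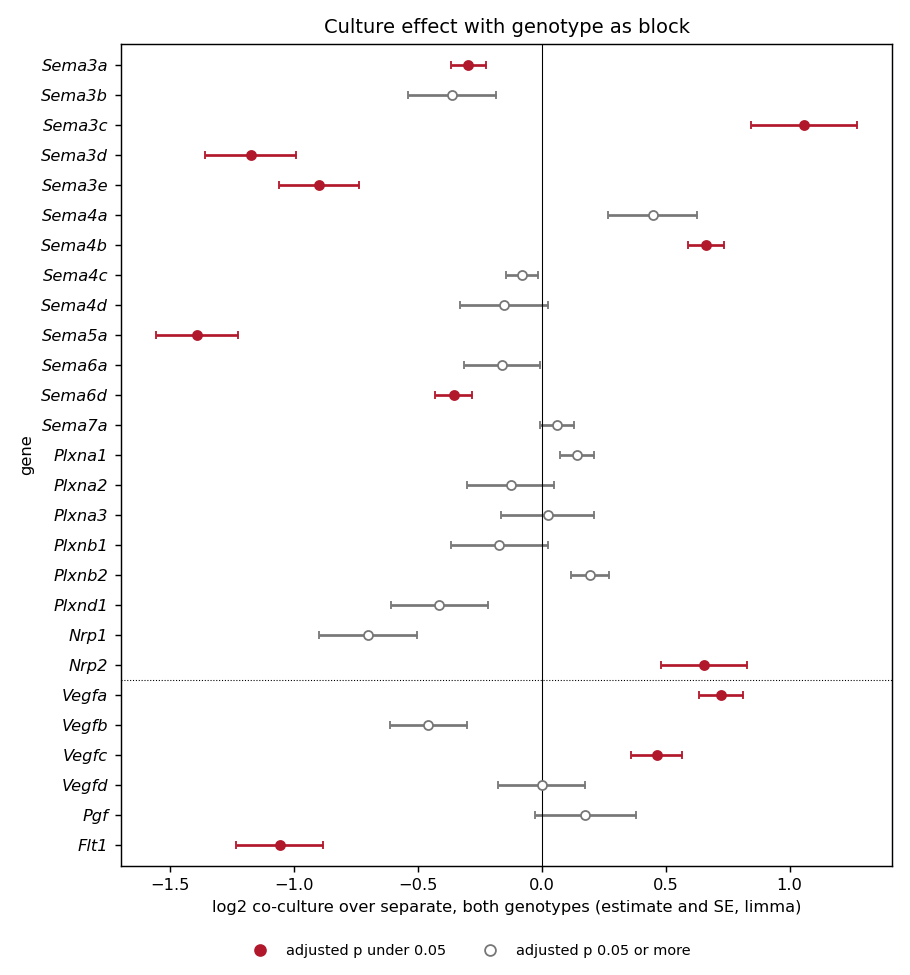
Fitted log2 change of co-culture over separate culture with its standard error (limma, genotype as block) for the 21 members above the dotted line and the 6 VEGF genes above the floor below it; red points have an adjusted p under 0.05. Sema5a has the lowest estimate at -1.39 and Sema3c the highest at 1.06, and Nrp1 and Nrp2 lie at -0.70 and 0.66.

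The partners at the membrane and the signalling genes behind plexins were mostly not called. Of 18 partner genes, such as Met, Furin and Adam17, 12 lay above the floor and 0 were called by limma. An unadjusted p under 0.05 was found for 4, Adam10, Adam17, Gipc1 and Tyrobp, and for 20.4% of all genes. Of the 38 matched genes of plexin signalling 36 lay above the floor, with 1 called as higher and 1 as lower. Of all genes 2.55% were called as higher and 3.83% as lower. Micall2, a MICAL-like protein of cell junctions, read 264 and 315 in separate culture and 744 and 700 in co-culture, 2.82-fold and 2.22-fold higher. Rasa1, a GTPase-activating protein of Ras, read 2932 and 3126 in separate culture and 2272 and 2242 in co-culture, 1.29-fold and 1.39-fold lower. The median fitted change was -0.0053 over the signalling genes and 0.030 over the partners.

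Signals of other cell types were read beside these genes. The summed signal of the 16 macrophage and leukocyte markers was 1808 in wild-type and 2130 in knockout separate culture. In co-culture it was 2222 and 2178. Cd53 and Laptm5 were the brightest, at 663 and 350 in wild-type separate culture, so few genes carry the sum. C1qb was called as higher, where 2.55% of all genes were. C1qa, C1qc, Ptprc and Itgam lay under the floor in all arrays. The summed signal of the 11 mesenchymal markers was 33636 and 29823 in separate culture and 30420 and 28987 in co-culture. Vim alone read 16128 in wild-type separate culture. Of the 9 above the floor 2 were called as lower, where 3.83% of all genes were. Of the 11 endothelial markers only Egfl7 lay above the floor, with Pecam1, Cdh5, Kdr and Tek under it in all 4 arrays, and of the 5 matched markers of neurons and glia 0 did. Of the 6 hepatocyte markers 4, Alb, Apoa1, Apoa2 and Ttr, lay above the floor in all 4 arrays, and 0 were called. Alb was the brightest, at 347 and 334 in separate culture and 344 and 324 in co-culture. The part of a shift in macrophage, mesenchymal or hepatocyte RNA in the changes of the members was not tested.

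The wild-type and knockout ratios come from different arrays and can be set side by side. Of the 21 members 19 had the same direction in wild type and knockout, against 6519 of 10224 genes in all, and the log2 ratios correlated across the 21 genes with Pearson's r = 0.93, against 0.53 across all genes. Genes are not independent replicates, so these are descriptions. The median absolute difference between the ratios was 0.10 on the log2 scale for members and 0.15 for all genes. With signals raised to the floor the largest, 0.75, was that of Sema3c, whose second probe set differed the other way. Sema3d lay under the floor in knockout co-culture. Without a floor its log2 ratio was -2.14 in knockout and -1.12 in wild type.

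**Figure D4:**
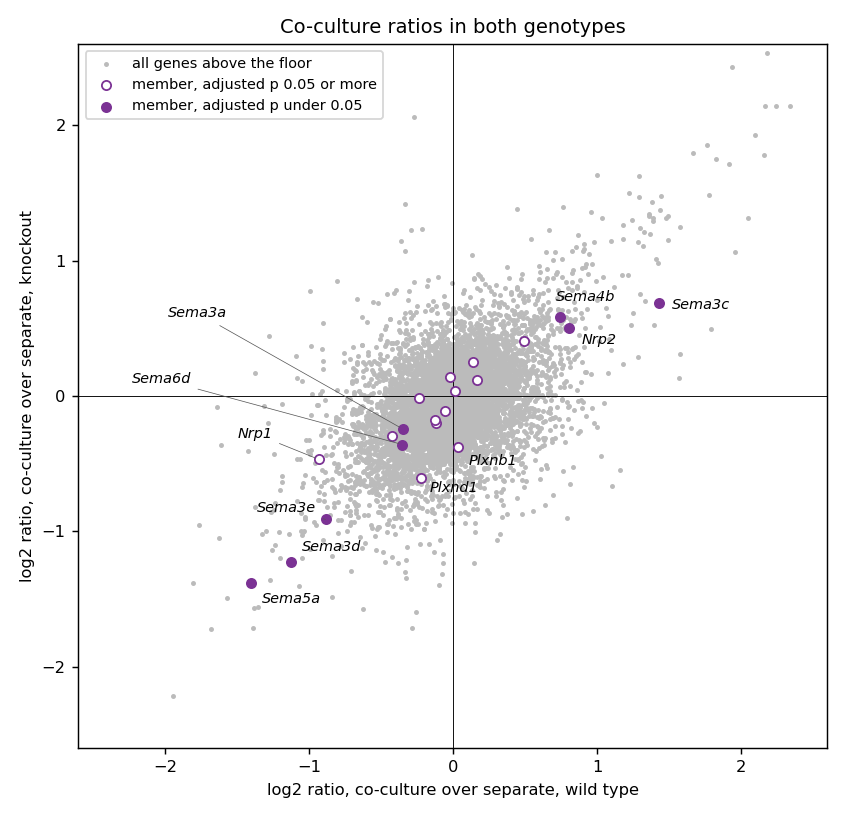
Log2 ratio of co-culture over separate culture in wild type (x) and knockout (y) for 10220 genes inside the axes (grey; 4 lie outside) and the 21 members (purple, filled where the adjusted p of the culture effect was under 0.05). Sema5a, Sema3d and Sema3e lie low in both genotypes, and Sema3c, Sema4b and Nrp2 high in both.

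The genotype comparison asked whether loss of Dectin-2 changes these genes. No member was 2-fold apart between knockout and wild type, in separate culture or in co-culture. Of all genes 0.203% were so in separate culture, 0.0869% higher and 0.116% lower in knockout, where 21 members were measured. In co-culture, where 19 were, it was 0.24%, 0.144% higher and 0.0962% lower. With signals raised to the floor, the largest differences were those of Plxnd1 in co-culture, 150 in wild type and 106 in knockout, and of Sema3c in separate culture, 67.0 and 104. Sema3d in co-culture read 82.0 in wild type and 40.3 in knockout, the latter under the floor, so its difference is bounded only from below. In the limma fit 0 of 21 members were called for genotype, 1 had an unadjusted p under 0.05, namely Sema4b, as did 9.49% of all genes, and 0.0282% of all genes were called. With signals raised to the floor, no member's co-culture ratio differed 2-fold between the genotypes. Of all genes 1.05% did, 0.432% with the higher and 0.62% with the lower ratio in knockout. The ratios of Sema3d in knockout and Sema3c in wild type are bounds, so their differences could be larger. With 1 array per group, neither the genotype differences within a culture condition nor those between co-culture ratios could be tested.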

How the data were processed

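The authors deposited linear intensities per probe set, made with Affymetrix Expression Console 1.4 and MAS5, per the submitters' processing notes, from 20 ng of RNA per array. MAS5 subtracts local background and scales each array, so levels are relative within an array, and small signals scatter widely. Detection calls were not used here.

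The platform annotation gave 1 symbol to 34945 of 45037 probe sets, several to 932, and 9160 were unlisted. Symbols were looked up by Entrez number in a RefSeq table of GRCm38.p6, which held 34741. A gene was read from the brightest of its 1-symbol probe sets, by mean log2 signal. Signals were raised to the floor of 76.1 and log2-transformed with no further scaling. A comparison left out genes that did not exceed the floor in any of its arrays, and "at least" marks a ratio whose dimmer array lay at or under it.

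The culture effect was fitted with limma 3.58.1 in R 4.3.3 (lmFit, eBayes with a trend on mean signal, culture and genotype as terms), adjusted by Benjamini-Hochberg over 10637 genes, and called at 0.05. A true difference between the genotypes' responses counts as error in it. Ratios within a genotype rest on 1 array a side and have no p. Precision is limited by the number of arrays, and a p measures only their spread. The fit was tested on simulated data: of 50 genes changed 1.5-fold 86% were called, of 50 changed 2-fold 100%, and of 10437 unchanged genes 11. The changed genes were drawn only from those with a mean log2 signal more than 2 above the floor. Noise followed the prior variance, with no added difference between the genotypes' responses. These shares thus hold only for noise of that form. They do not describe dimmer members such as Sema3c, Sema3d and Nrp1. How far they hold for brighter members in the real arrays was not tested.

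All members may be named; list genes are named with values if called or 2-fold apart. Other list genes and markers are named as examples, as lying under the floor or as passing an unadjusted p, and were chosen after their values were seen. The members and lists were chosen with earlier results of these data known. Alternatives covered the floor, scaling, probe set, filter and variance model.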

Additional observations from a re-analysis of the deposited data

Results flagged for a closer look

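Plxnb1 and Sema7a had co-culture ratios on opposite sides of 1 in the genotypes, on single arrays, so the difference was not tested. Plxnb1 had a log2 ratio of 0.034 in wild type and -0.38 in knockout, and its second probe set went the same ways at 0.14 and -0.048. Sema7a had a log2 ratio of -0.018 in wild type and 0.14 in knockout, while its second probe set was higher in both, at 0.48 and 0.26.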

How the results depend on the processing

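With 1 array per group no array could be left out of a ratio, and the fit of all 4 arrays has no residual degree of freedom without any of them. The labels carry no replicate numbers, and the culture conditions were paired within genotype in the fit. The 21 culture effects kept their sign under the alternatives run, except that of Plxna3 with the median over probe sets, and Plxna3 was called in none of them. With the median over probe sets 5 members were called (275 genes in all, against 678), and without the signal trend 2 (45 genes). Without a filter limma called 0 members and 0 genes, with 9 of 31 members and 8.41% of all genes at an unadjusted p under 0.05; that setting adds genes at the floor in all arrays, which have no spread. Over all probe sets 9 members were called, where a member counted if any of its probe sets passed. In that fit 1170 of 20700 single probe sets were called, so the 2 counts differ in unit and their shares cannot be compared. Adjusted p-values of limma over the alternatives ranged from 3.74e-08 to 0.491 for Sema5a and from 0.00407 to 0.385 for Sema3d. Sema5a was called in 7 of 8, all but the one without a filter, and Sema3d in 5 of 7. Sema3c was called in 3 of 7. It was not called with the floor from odorant and vomeronasal receptor genes, with the floor doubled, without a filter or without the signal trend. The range was 0.00803 to 0.661 for Nrp2 and 0.0161 to 0.759 for Nrp1, called in 3 of 8 each. Without a floor 5 members were 2-fold apart between culture conditions in wild type (18.7% of all genes), and with the floor doubled 1 in wild type (0.814%) and 1 in knockout (0.857%), Sema5a. Over genes above the floor in both arrays of the comparison 1 was in knockout (1.08%), again Sema5a. Without a floor 4 members were 2-fold apart between genotypes in separate culture (17.1% of all genes) and 3 in co-culture (17.3%), and 3 differed in their co-culture ratios (24.6%). With a floor of 23.2 from odorant and vomeronasal receptor genes these counts were 2 (1.92%), 1 (1.86%) and 1 (4.83%). The cause of the changes in count was not tested. Signals near the floor, those of Sema3c and Sema3d among them, limit the size of their ratios.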

Other observations

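Other guidance families were read from a list of ephrins, Eph receptors, Slits, Robos, netrins and their receptors. Of its 39 matched genes 18 lay above the floor, and limma called 2 as higher and 2 as lower in co-culture. Of all genes 2.55% were called as higher and 3.83% as lower. Slit2, a secreted repellent of the Robo receptors, read 94.2 in wild-type and 109 in knockout separate culture and 171 and 189 in co-culture, 1.82-fold and 1.74-fold higher (adjusted p = 0.0203). Ephb4, the receptor of ephrin-B2 in veins, read 820 and 801 in separate culture and 1135 and 998 in co-culture, 1.38-fold and 1.25-fold higher (adjusted p = 0.0299). Efna2, a membrane-anchored ephrin, read 302 and 419 in separate culture and 176 and 266 in co-culture, 1.71-fold and 1.58-fold lower (adjusted p = 0.0358). Unc5b, a netrin receptor of vessels, read 2446 and 2304 in separate culture and 1841 and 1887 in co-culture, 1.33-fold and 1.22-fold lower (adjusted p = 0.00893). The median fitted change of the 18 was -0.0045 on the log2 scale. These genes, too, were chosen with earlier results of the arrays known.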
